A study of Mus musculus with 6 samples.

Results

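The genes described here are 40 interferon-stimulated genes of the mouse that lie outside the IFIT, OAS, GBP, Ifi200, IRF and RNA sensor families. They were picked by gene name from the deposited table, and all 40 names were found among its 54660 gene rows. The samples were macrophages that had been grown from bone marrow precursors (BMDMs) of C57BL/6 mice aged 6 to 8 weeks. One genotype, Xbp1FL/FL, carried floxed Xbp1 alleles and is called WT, and the other, Xbp1M-KO, is named as a myeloid deletion of Xbp1 and is called KO, with 3 libraries each. All 6 cultures were treated for 6 h with lipopolysaccharide (LPS), which Gram-negative bacteria carry in their outer membrane, so every comparison is between stimulated cultures. The sources used here name neither the driver of the deletion nor the animals behind each library, and p-values therefore measure the spread between libraries, which may be technical.

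LPS sensed by Toll-like receptor 4 makes macrophages release interferon beta, which acts back on the same cells. Its receptor activates the kinases JAK1 and TYK2, and these activate the transcription factor ISGF3, which holds STAT2 and IRF9. ISGF3 binds the interferon-stimulated response element (ISRE) in the promoters of interferon-stimulated genes, whose products restrict viruses and feed back on the interferon signal. The study concerns XBP1, a factor that turns on genes in response to unfolded proteins, and STING signalling, a pathway that senses cytosolic DNA and also leads to interferon beta.

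Libraries held between 31976748 and 42448058 counts. Xbp1 itself was at 91.2, 88.2 and 87.5 CPM in WT replicates 1 to 3 and at 66.3, 65.5 and 65.6 CPM in KO replicates 1 to 3. CPM are counts relative to library size, after scaling of the libraries by TMM, a trimmed mean of ratios between libraries. Xbp1 was therefore lower in every KO library but still counted (log2 change -0.44 ± 0.0363 SE with adjusted p = 2.38e-08 in edgeR), and gene counts can include exons outside the deleted part. All 10 macrophage markers examined, among them Adgre1, Csf1r and Itgam, were detected, and Adgre1 was between 1204 and 1256 CPM in WT. The 8 markers of T, NK and B cells had at most 6 counts in any library.

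Most of the 40 genes were lower in KO. By edgeR's quasi-likelihood test over 13080 genes, with Benjamini-Hochberg adjustment and a threshold of 0.05, 31 members fell, 6 rose and 3 were not called, and every member passed the filter on low counts. Of all genes tested 61.3% were called, 29.8% fell and 31.5% rose, against 77.5% and 15.0% of the members. Strongly expressed genes are called more often, and among the 4034 genes with a mean level at least that of the lowest member 45% fell and 38.2% rose. The median log2 fold change, KO over WT, was -0.38 for the members and -0.0016 for all genes tested. Most falls were moderate. A fall of at least 1.5-fold was called for 12 of the 40 members, against 11.6% of all genes, and the members ranged from -1.04 (Samd9l) to 0.59 (Lgals3bp). Every KO library lay below every WT library in 31 of the 40 members and above in 6. Of all genes tested, 32.3% and 33.6% had groups that did not overlap in these directions, 65.9% in either. The members concerned were the same ones that were called, so this separation adds no support beyond the calls. The members made up between 2.52% and 2.61% of the counts of a WT library and between 2.21% and 2.26% of those of a KO library. In a bulk sample fewer cells of a kind and less RNA per cell cannot be told apart.

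**Figure D1:**
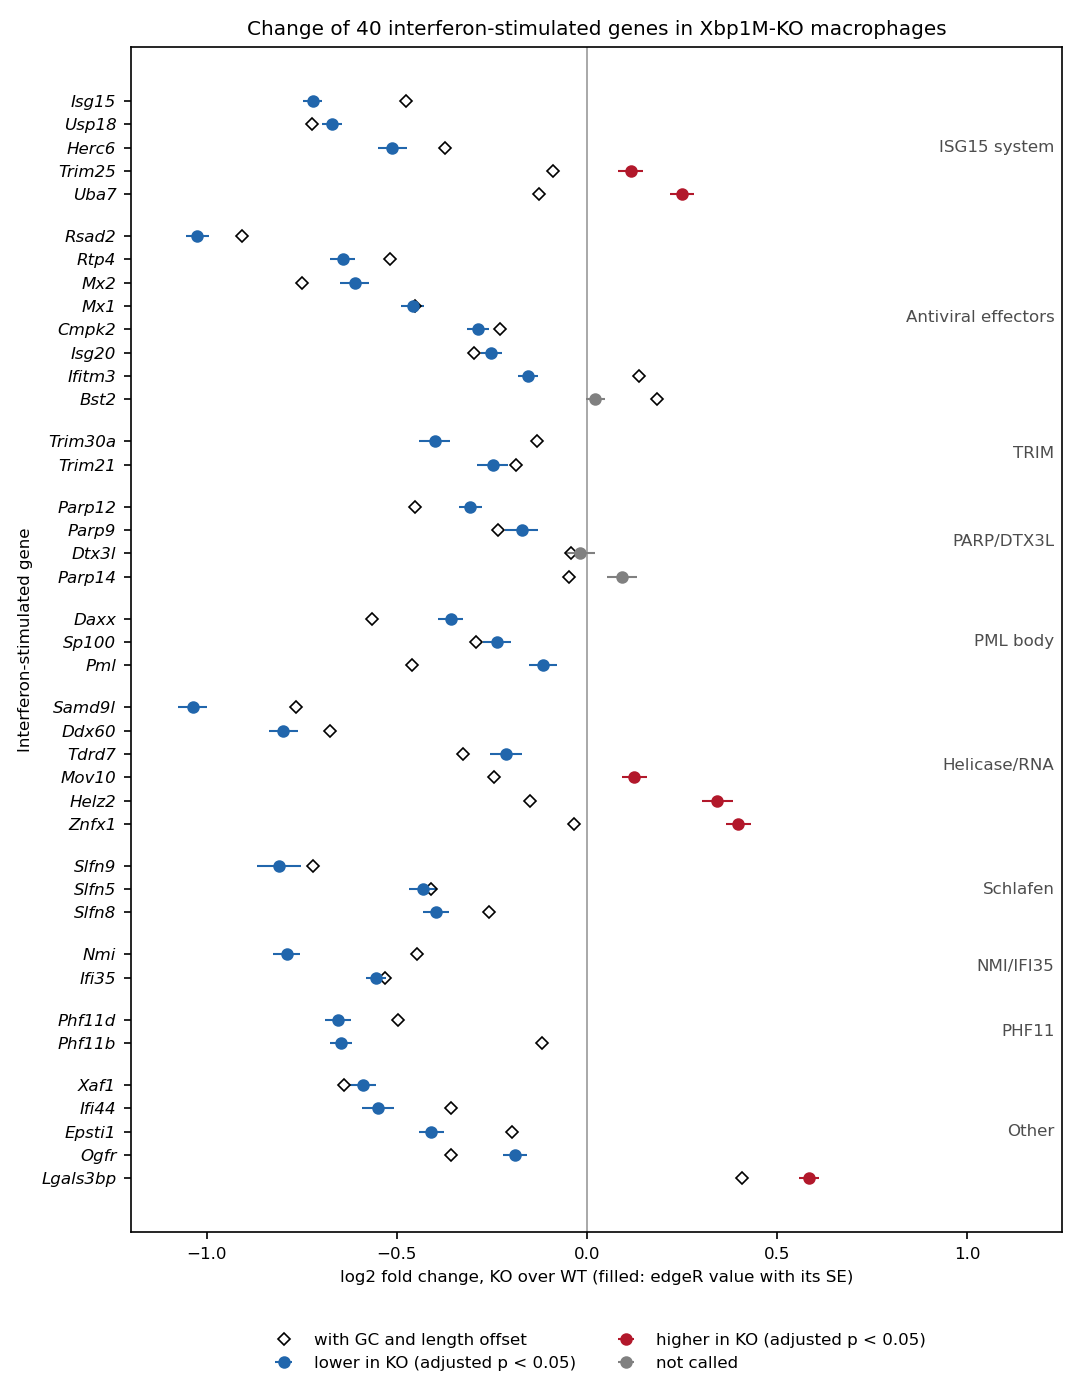
Log2 fold change, KO over WT, of each of the 40 genes, grouped by role, with the edgeR value and its SE as filled points and the value under an offset for GC content and gene length as open diamonds. Rsad2 at -1.03 and Samd9l at -1.04 lie farthest to the left, and of the 6 genes that rose only Lgals3bp stays above 0 with the offset.

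Changes between the genotypes followed the GC content of transcripts across the whole table. Values with that trend removed are given in the text beside some members only, and the plot of fold changes by role shows them for all 40. Members without such a value in the text can also change in size. With the trend removed, Herc6 went from -0.51 to -0.37 and Rtp4 from -0.64 to -0.52. Mx2 went from -0.61 to -0.75 and Parp12 from -0.31 to -0.45. Over all genes tested, Spearman's rho between log2 fold change and the GC content of the longest transcript was 0.27, and over the 40 members it was 0.60, as descriptions across genes of the same 6 libraries. The 6 members that rose had GC contents from 49.9% to 57.3%, with a median of 55.7%. The 31 that fell had a median of 46.3%, with a range from 38.8% (Samd9l) to 59.6% (Ogfr). An alternative fit removed the trend across all genes with an offset per library from the GC content and length of each gene. Spearman's rho was then -0.014 over all genes tested, but still 0.23 over the 40 members. Under that offset 34 members fell and 3 rose, against 28.3% and 27.2% of all genes, and the median of the members was -0.34. Of the 31 members that fell, 30 also fell under the offset, while Ifitm3 rose. Of the 6 that rose, Lgals3bp also rose under the offset, 4 fell and Znfx1 was not called.

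**Figure D2:**
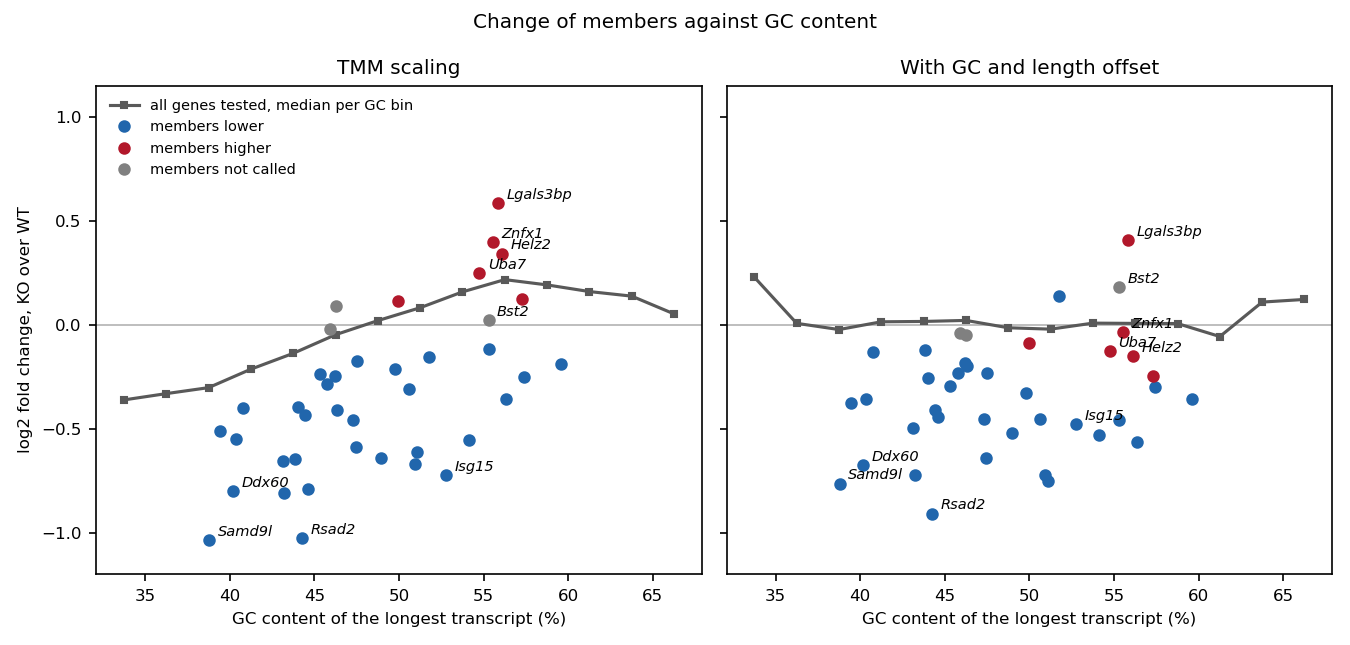
Log2 fold change, KO over WT, of the 40 members against the GC content of their longest transcript, with TMM scaling (left) and with the GC and length offset (right). The grey line is the median of all genes tested in each GC bin of at least 20 genes, and point colours give the call with TMM scaling in both panels. On the left the red points lie where the line is above 0, and on the right Lgals3bp at 0.41 is the highest member.

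Promoter sequences were examined for the ISRE. RefSeq promoters, which run from 250 bases before to 50 bases after a gene's start on build GRCm38.p6, were matched by symbol for 34 of the 40 genes, not for Mx1, Mx2, Rtp4, Usp18, Parp9 and Parp14. The ISRE core, searched on both strands as GAAANNGAAA, was found in a promoter of 13 of the 34, or 38.2%, against 3.99% of all 27025 genes with a promoter. The core of the GAS element, the interferon gamma-activated site, TTCNNNGAA, was found for 4 members, or 11.8%, against 9.55% of all genes. Of the 13 members with the ISRE core 12 fell and 1, Bst2, was not called, with a median log2 fold change of -0.40. Of the 21 without it 14 fell and 6 rose, with a median of -0.29. The median GC contents of these groups were 44.4% with the core and 49.9% without it. With the GC and length offset 11 members with the core fell and 2 rose, with a median of -0.33. Of those without it 18 fell and 1 rose under the offset, with a median of -0.30. The differences between these groups were not tested. The promoters below are those of Isg15, of the 3 members with the core that fell most, and of the 2 that rose most, written 5′ to 3′ on the strand of the gene, with the ISRE core, or its reverse complement, in capitals.
Isg15, chr4:156200769-156201068, minus strand: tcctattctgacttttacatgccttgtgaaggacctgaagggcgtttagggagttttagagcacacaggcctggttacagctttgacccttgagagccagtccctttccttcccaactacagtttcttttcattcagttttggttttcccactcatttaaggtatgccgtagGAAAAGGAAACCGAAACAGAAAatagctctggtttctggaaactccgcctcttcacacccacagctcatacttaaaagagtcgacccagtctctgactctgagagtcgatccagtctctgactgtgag
Rsad2, chr12:26456403-26456702, minus strand: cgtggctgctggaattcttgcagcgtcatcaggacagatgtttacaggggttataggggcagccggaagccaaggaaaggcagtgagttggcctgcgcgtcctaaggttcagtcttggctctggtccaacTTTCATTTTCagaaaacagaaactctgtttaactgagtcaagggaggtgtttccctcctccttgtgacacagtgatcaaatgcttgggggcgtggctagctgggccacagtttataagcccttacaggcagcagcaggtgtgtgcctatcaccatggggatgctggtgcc
Slfn9, chr11:82991781-82992080, minus strand: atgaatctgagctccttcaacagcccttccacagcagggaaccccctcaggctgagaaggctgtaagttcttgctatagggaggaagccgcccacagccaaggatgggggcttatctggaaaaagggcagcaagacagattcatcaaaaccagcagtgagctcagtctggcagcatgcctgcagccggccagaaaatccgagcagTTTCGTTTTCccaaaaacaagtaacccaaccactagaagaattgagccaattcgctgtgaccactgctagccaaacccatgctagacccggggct
Ddx60, chr8:61927837-61928136, plus strand: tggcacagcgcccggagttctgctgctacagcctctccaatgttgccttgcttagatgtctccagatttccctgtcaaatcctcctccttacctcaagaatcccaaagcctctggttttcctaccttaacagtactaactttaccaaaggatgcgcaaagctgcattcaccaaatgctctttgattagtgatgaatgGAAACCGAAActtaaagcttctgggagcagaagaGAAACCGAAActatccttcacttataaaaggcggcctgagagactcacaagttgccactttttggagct
Lgals3bp, chr11:118401910-118402209, minus strand: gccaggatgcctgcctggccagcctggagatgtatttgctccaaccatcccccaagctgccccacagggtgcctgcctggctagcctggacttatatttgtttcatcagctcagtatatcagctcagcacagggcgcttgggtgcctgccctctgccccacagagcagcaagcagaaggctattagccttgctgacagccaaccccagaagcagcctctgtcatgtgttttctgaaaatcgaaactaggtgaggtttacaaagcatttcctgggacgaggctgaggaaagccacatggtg
Znfx1, chr2:167062966-167063265, minus strand: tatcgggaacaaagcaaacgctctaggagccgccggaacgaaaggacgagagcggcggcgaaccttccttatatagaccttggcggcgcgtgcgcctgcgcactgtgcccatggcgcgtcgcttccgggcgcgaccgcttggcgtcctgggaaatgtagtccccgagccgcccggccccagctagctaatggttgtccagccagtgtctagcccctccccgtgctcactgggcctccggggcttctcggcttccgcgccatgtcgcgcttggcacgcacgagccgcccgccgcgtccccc
Isg15 held 3 matches that overlap each other, the first beginning 78 bases before the start of the gene. Rsad2 and Slfn9 each held 1 match on the opposite strand, in Rsad2 from 120 and in Slfn9 from 45 bases before the start. In Ddx60 a pair of matches of identical sequence began 53 and 19 bases before the start. Lgals3bp and Znfx1 held no match in these windows, and the Lgals3bp start lies 133 bases from the 5′ end of the gene as deposited. The search allowed no mismatch, so a window without a match can hold a site close to the core. The Lgals3bp window holds such a site, which differs from the core in its first base.

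The ISG15 conjugation system split between the modifier and its activating enzyme. ISG15 is a ubiquitin-like protein that is joined to other proteins and also secreted. Isg15 (ENSMUSG00000035692, chromosome 4, 156199424 to 156200818 on mm10), whose promoter with overlapping ISRE cores is shown above, had 5080.0, 5479 and 5307 CPM in the WT libraries and 3237, 3180.4 and 3203 CPM in the KO libraries. All 3 KO libraries lay below the WT libraries (log2 change -0.72 ± 0.0257 SE with adjusted p = 1.05e-12 in edgeR), and the value was -0.48 with the GC and length offset. Usp18, the protease that removes ISG15 from proteins and dampens signalling at the interferon receptor, had 1171, 1174 and 1203 CPM in WT and 746, 750.0 and 731 CPM in KO. It fell (log2 change -0.67 ± 0.0263 SE with adjusted p = 3.30e-12 in edgeR), again without overlap of the groups. Herc6, the main ISG15 ligase of the mouse, fell by 0.51 on the log2 scale (SE 0.0384, edgeR adjusted p = 6.56e-09). Uba7, the enzyme that activates ISG15, moved the other way, from 232, 238 and 237 CPM in WT to 284, 279 and 278 CPM in KO (log2 change 0.25 ± 0.0311 SE with adjusted p = 2.64e-06 in edgeR). Trim25, a ubiquitin ligase of the RIG-I pathway that has also been described as an ISG15 ligase, was at 199.6, 195 and 190.1 CPM in WT and 213, 209 and 211 CPM in KO. Its rise was small (log2 change 0.12 ± 0.0331 SE with adjusted p = 0.00624 in edgeR). Both rises turned into falls under the GC and length offset, to -0.13 for Uba7 (edgeR adjusted p = 0.00138) and -0.089 for Trim25 (edgeR adjusted p = 0.0168). Their transcripts have GC contents of 54.8% and 49.9%.

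Among 8 genes of direct antiviral effectors 7 fell and Bst2 was not called. Rsad2 encodes viperin, an enzyme that makes a nucleotide analogue which ends viral RNA chains. Its level was 1211, 1210.3 and 1296 CPM in WT and 605, 610.4 and 612 CPM in KO, without overlap of the groups (log2 change -1.03 ± 0.0303 SE with adjusted p = 1.68e-13 in edgeR). Cmpk2, a mitochondrial nucleotide kinase gene, is the neighbour of Rsad2 on chromosome 12, 12751 bases away on the other strand with no annotated gene between them. It fell less, by 0.29 on the log2 scale (SE 0.0285, edgeR adjusted p = 1.94e-07), and no ISRE core was found in its window. Rtp4, a receptor transporter protein gene, had 627, 597 and 649 CPM in WT and 395, 397 and 407 CPM in KO (log2 change -0.64 ± 0.0332 SE with adjusted p = 8.09e-11 in edgeR). The dynamin-like GTPase genes Mx1 and Mx2 lie on chromosome 16, and the Mx1 allele of most laboratory strains, C57BL/6 among them, does not give a working protein. Mx1 had 578, 586 and 611 CPM in WT and 434, 436 and 422 CPM in KO and fell (log2 change -0.46 ± 0.0308 SE with adjusted p = 1.69e-09 in edgeR). Mx2 fell by 0.61. Both transcripts share a stretch of 843 bases at 95.3% identity, so reads may be split between them, and the summed counts of the pair changed by -0.48 (SE 0.0301, edgeR adjusted p = 6.85e-10). Isg20, an exonuclease gene, fell by 0.25 on the log2 scale.

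The membrane restriction factors were the members least changed among the effectors. Bst2, which encodes tetherin and holds virus particles at the cell surface, had 3016, 3149 and 3014 CPM in WT and 3154, 3038 and 3129 CPM in KO. The groups overlapped and the gene was not called (log2 change 0.022 ± 0.0247 SE with adjusted p = 0.455 in edgeR). It was called higher with library totals as the scaling (0.14, edgeR adjusted p = 1.11e-04) and with the GC and length offset (0.18, edgeR adjusted p = 3.06e-06). Ifitm3, an endosomal membrane protein gene that blocks virus entry, changed by -0.15 (SE 0.0259, edgeR adjusted p = 6.61e-05), a value of -0.040 with library totals (edgeR adjusted p = 0.196) and of 0.14 with the GC and length offset (edgeR adjusted p = 5.89e-04). The direction of Ifitm3 thus depended on the offset. Per length, these 2 genes and Isg15 were the most abundant of the 40. In the deposited FPKM, which divide fragments by gene length and a scaled library total, the WT levels were 6941 ± 276 for Isg15, 6858 ± 217 for Ifitm3 and 3362 ± 94.997 for Bst2 (SD, n = 3). The KO levels were 4216 ± 36.3, 6171 ± 140.0 and 3419.6 ± 68.0 FPKM, so that Isg15 was the member with the highest level in WT and Ifitm3 in KO. In WT the levels of Isg15 and Ifitm3 differed by less than their SDs.

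**Figure D3:**
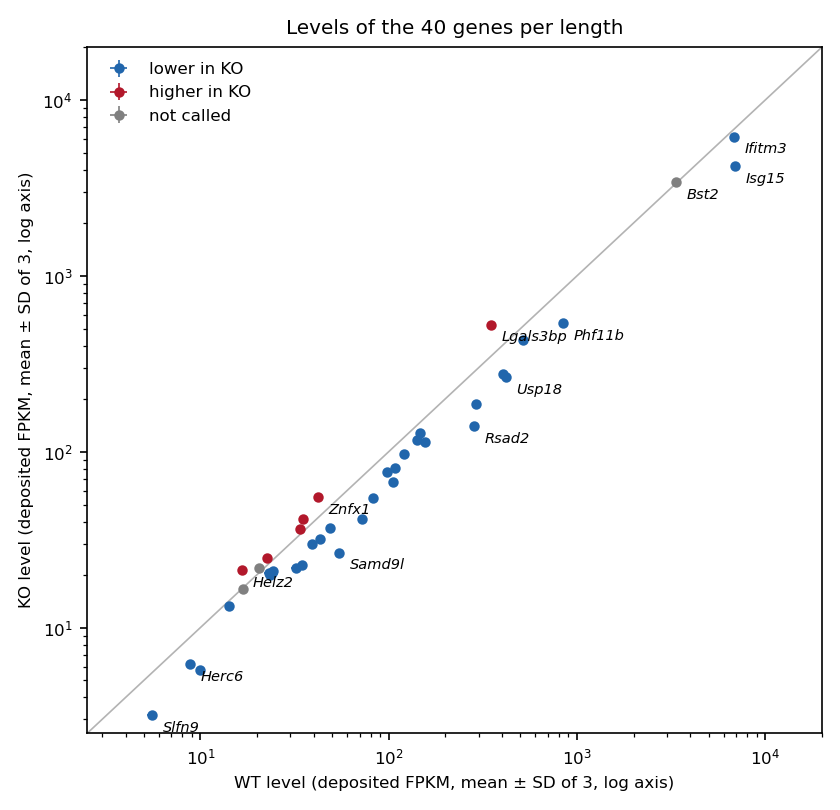
Mean level of each of the 40 genes in KO against WT, as deposited FPKM on log axes, with SD bars over 3 libraries that are mostly smaller than the points. Blue points below the diagonal fell and red points above it rose, and the genes span from 5.55 FPKM (Slfn9) to 6941 FPKM (Isg15) in WT.

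Both further TRIM genes fell. Trim30a, a mouse TRIM protein that restrains Toll-like receptor signalling, had 195, 197 and 214 CPM in WT and 154, 157 and 147 CPM in KO (log2 change -0.40 ± 0.0410 SE with adjusted p = 2.71e-07 in edgeR), but -0.13 with the GC and length offset. With its near-identical copy Trim30d added, the summed counts changed by -0.42. Trim21, an intracellular antibody receptor with ubiquitin ligase activity, had 84.0, 87.7 and 91.5 CPM in WT and 75.5, 72.8 and 73.3 CPM in KO. Its fall was smaller (log2 change -0.25 ± 0.0398 SE with adjusted p = 4.23e-05 in edgeR), and the groups did not overlap for either gene.

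Of the 4 ADP-ribosylation genes Parp12 and Parp9 fell, while Dtx3l and Parp14 were not called. Parp12, a mono-ADP-ribosyltransferase gene, had 493, 482 and 473 CPM in WT and 384, 393 and 394 CPM in KO and fell (log2 change -0.31 ± 0.0298 SE with adjusted p = 1.48e-07 in edgeR). Parp9 and Dtx3l encode partners of a single complex that joins ADP-ribose to ubiquitin, and they start on opposite strands of chromosome 16 with 458 shared exon bases. Parp9 was at 106, 117 and 117 CPM in WT and 102, 97.9 and 102 CPM in KO (log2 change -0.17 ± 0.0428 SE with adjusted p = 0.00228 in edgeR), a call lost with library totals as the scaling (-0.057, edgeR adjusted p = 0.257). Dtx3l was at 92.0, 97.7 and 100.1 CPM in WT and 95.1, 97.0 and 93.9 CPM in KO. Its groups overlapped and it was not called (log2 change -0.018 ± 0.0387 SE with adjusted p = 0.702 in edgeR), though with library totals its value was 0.097 (edgeR adjusted p = 0.0411), and with the GC and length offset -0.041 (edgeR adjusted p = 0.328). The sources used here do not say whether strand was kept, so reads over the shared bases cannot be told apart. Parp14, a neighbouring gene of the same enzyme family, had 185, 191 and 201 CPM in WT and 212, 207 and 196 CPM in KO. It missed the threshold (log2 change 0.093 ± 0.0397 SE with adjusted p = 0.0539 in edgeR) and was called higher without WT replicate 3 (0.12, edgeR adjusted p = 0.0135) and without KO replicate 3 (0.13, edgeR adjusted p = 0.0139). It was also called higher with library totals (0.21, edgeR adjusted p = 2.38e-04), without the filter (0.12, edgeR adjusted p = 0.00734) and by DESeq2 (0.095, adjusted p = 0.0491), while the GC and length offset gave -0.047 (edgeR adjusted p = 0.238).

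All 3 genes of PML nuclear bodies, which are protein clusters in the nucleus, fell, and by more with the GC and length offset than without it. Daxx, a histone chaperone gene, had 303, 297 and 302 CPM in WT and 238, 237 and 228 CPM in KO (log2 change -0.36 ± 0.0318 SE with adjusted p = 4.73e-08 in edgeR), and -0.57 with the offset. Sp100, a constituent of the bodies, had 178, 181 and 191 CPM in WT and 158, 158 and 150.1 CPM in KO (log2 change -0.24 ± 0.0375 SE with adjusted p = 3.83e-05 in edgeR), and -0.29 with the offset. For these genes the groups did not overlap. Pml, the scaffold of the bodies, changed by -0.12 (SE 0.0371, edgeR adjusted p = 0.0132), a call lost without WT replicate 2 (-0.10, edgeR adjusted p = 0.0519) and without KO replicate 3 (-0.098, edgeR adjusted p = 0.0634), and also without the filter (-0.091, edgeR adjusted p = 0.101). It was -0.00020 with library totals as the scaling (edgeR adjusted p = 0.997) and -0.46 with the GC and length offset (edgeR adjusted p = 2.80e-09).

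Genes of helicases and other RNA-handling proteins moved both ways, 3 falling and 3 rising. Samd9l, an antiviral and growth-restraining protein gene, had 290.1, 290.1 and 317 CPM in WT and 144, 148 and 145 CPM in KO (log2 change -1.04 ± 0.0385 SE with adjusted p = 1.78e-12 in edgeR). It had the lowest value of the 40 and also the lowest GC content, 38.8%, and its value was -0.76 with the GC and length offset. Summed with Gm20559, with which it shares a stretch of near-identical sequence, it changed by -0.76. Ddx60, a helicase gene linked to RIG-I-like receptors, was at 84.9, 89.0 and 88.3 CPM in WT and 50.9, 50.1 and 49.7 CPM in KO (log2 change -0.80 ± 0.0380 SE with adjusted p = 3.16e-11 in edgeR), and its promoter with a pair of ISRE cores is shown above. Tdrd7, a tudor domain protein gene, changed by -0.21 (SE 0.0420, edgeR adjusted p = 3.13e-04), a call lost with library totals (-0.099, edgeR adjusted p = 0.0548), and was at -0.33 with the GC and length offset (edgeR adjusted p = 2.66e-06).

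The 3 RNA helicase genes that rose were Znfx1, which encodes a sensor of double-stranded RNA at mitochondria, Helz2, a coactivator of nuclear receptors, and Mov10, which restricts retroelements. Znfx1 had 338, 355 and 344 CPM in WT and 463, 464 and 439 CPM in KO (log2 change 0.40 ± 0.0328 SE with adjusted p = 2.02e-08 in edgeR). Helz2 had 194, 199.9 and 185 CPM in WT and 252, 251 and 232 CPM in KO (log2 change 0.34 ± 0.0403 SE with adjusted p = 1.36e-06 in edgeR). Mov10 had 128, 128 and 128 CPM in WT and 140.0, 140.1 and 138 CPM in KO (log2 change 0.12 ± 0.0326 SE with adjusted p = 0.00342 in edgeR). In each of them every KO library lay above every WT library. None rose under the GC and length offset. There Znfx1 was at -0.035 (edgeR adjusted p = 0.305), while Helz2 was at -0.15 (edgeR adjusted p = 4.13e-04) and Mov10 at -0.25 (edgeR adjusted p = 4.06e-06). All 3 signs turned, and Znfx1 was not called. Their GC contents were 55.6%, 56.1% and 57.3%.

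**Figure D4:**
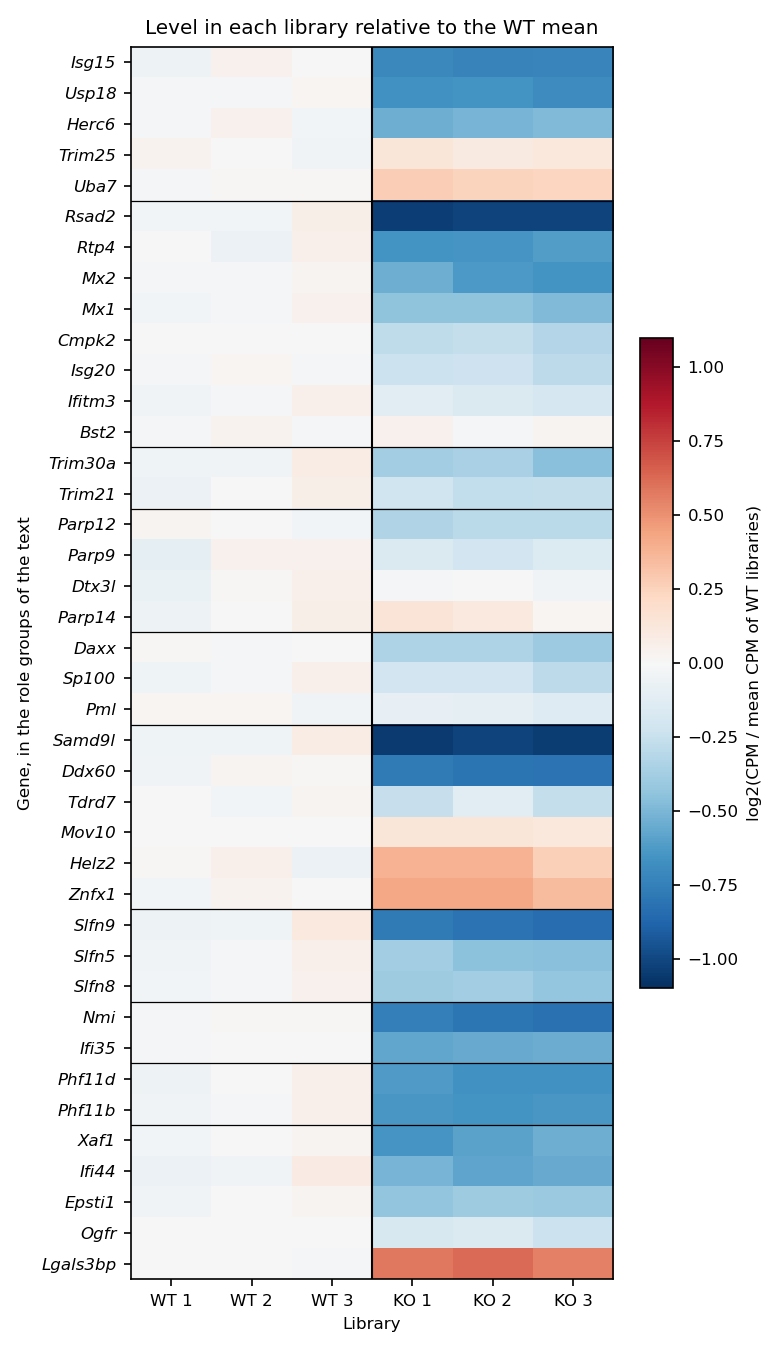
Level of each of the 40 genes in each library, as log2 of CPM over the mean CPM of the WT libraries, with genes in the role groups of the text. The 3 KO columns look alike, blue for the 31 genes that fell and red for the 6 that rose, and the WT columns stay near 0.

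The Schlafen genes, a family that restrains cell growth and viral protein synthesis, lie close together on chromosome 11 and all 3 fell. Slfn9 had 32.1, 32.3 and 35.9 CPM in WT and 19.5, 19.0 and 18.6 CPM in KO (log2 change -0.81 ± 0.0580 SE with adjusted p = 3.71e-09 in edgeR), the lowest level per length of the 40 genes with 5.55 ± 0.346 FPKM in WT. Slfn5 had 266, 271 and 285 CPM in WT and 210.0, 200.2 and 199 CPM in KO (log2 change -0.43 ± 0.0360 SE with adjusted p = 2.30e-08 in edgeR). Slfn8 changed by -0.40 (SE 0.0352, edgeR adjusted p = 4.85e-08), and by -0.26 with the GC and length offset. All of them held an ISRE core in a promoter window. Slfn8 and Slfn9 share near-identical sequence with each other, and the summed counts of both with Slfn10-ps changed by -0.46 (SE 0.0355, edgeR adjusted p = 9.11e-09).

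Nmi and Ifi35, whose proteins bind each other, both fell. Nmi had 142, 146 and 146 CPM in WT and 86.0, 83.3 and 81.8 CPM in KO (log2 change -0.79 ± 0.0354 SE with adjusted p = 1.54e-11 in edgeR), and was at -0.45 with the GC and length offset. Ifi35 had 697, 709 and 709 CPM in WT and 475, 481 and 484 CPM in KO (log2 change -0.56 ± 0.0273 SE with adjusted p = 4.49e-11 in edgeR), and -0.53 with the offset. Phf11b and Phf11d, PHD finger genes 6055 bases apart on chromosome 14, fell by nearly the same amount with TMM scaling. Phf11b had 974, 993 and 1039.5 CPM in WT and 642, 635 and 643 CPM in KO (log2 change -0.65 ± 0.0292 SE with adjusted p = 1.71e-11 in edgeR). Phf11d had 458, 476 and 497 CPM in WT and 309, 299.8 and 299.8 CPM in KO (log2 change -0.65 ± 0.0341 SE with adjusted p = 9.07e-11 in edgeR). With the offset the values were -0.12 for Phf11b, whose deposited gene length is 1184 bases, and -0.50 for Phf11d, with 4498 bases. The difference between them was not tested. Both are near-identical in part to Phf11a, and the summed counts of the 3 genes changed by -0.66.

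Of the 5 remaining genes 4 fell and Lgals3bp rose. Lgals3bp, a secreted glycoprotein gene whose product binds galectins, had 1010.0, 1012 and 998 CPM in WT and 1507, 1549 and 1475 CPM in KO. Every KO library lay above every WT library (log2 change 0.59 ± 0.0262 SE with adjusted p = 1.54e-11 in edgeR). It was the member with the highest value and also rose with the GC and length offset (0.41, edgeR adjusted p = 5.61e-11) and with library totals (0.70). Xaf1, a proapoptotic partner of the inhibitor XIAP, had 382, 389.9 and 397 CPM in WT and 248, 259 and 269 CPM in KO (log2 change -0.59 ± 0.0347 SE with adjusted p = 3.60e-10 in edgeR). Ifi44 changed by -0.55, or by -0.36 with the offset, and Epsti1 by -0.41, or by -0.20 with the offset. Ogfr, the opioid growth factor receptor gene, changed by -0.19 (edgeR adjusted p = 5.56e-05), a call lost with library totals (-0.075, edgeR adjusted p = 0.0528), and by -0.36 with the GC and length offset.

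Of 42 genes listed for the pathway 21 passed the filter on low counts, and 9 of these rose, 7 fell and 5 were not called, with a median log2 fold change of 0.056. The shares that rose and fell, 42.9% and 33.3%, stand beside 31.5% and 29.8% of all genes tested, and 38.2% and 45% of those expressed at least as strongly as the lowest member. Those that did not pass were 20 interferon genes, 15 of them without a count in any library, and the interferon lambda receptor gene Ifnlr1. Ifnb1, the gene of interferon beta, had 143, 129 and 121 counts in the WT libraries and 56, 59 and 109 in the KO libraries. KO replicate 3 lay nearest to the WT libraries, without overlap. The gene fell (log2 change -1.002 ± 0.170 SE with adjusted p = 7.57e-05 in edgeR), but the call was lost with the GC and length offset (-0.39, edgeR adjusted p = 0.0516). Of the type I receptor genes Ifnar1 changed by -0.17 (edgeR adjusted p = 2.12e-04), a call lost with library totals (-0.058, edgeR adjusted p = 0.14), while Ifnar2 was at 0.056 (edgeR adjusted p = 0.184). Of the kinase genes behind the receptor, chosen for mention after their values were seen, Jak1 was at 0.27 (edgeR adjusted p = 1.55e-05) and 0.11 with the offset (edgeR adjusted p = 0.0122). Tyk2 was at 0.30 (edgeR adjusted p = 1.42e-06) and -0.12 with the offset (edgeR adjusted p = 0.00215), so that its direction turned. Called but not described further were Jak2 (-0.20), Irf1 (-0.22), Ifngr2 (-0.24) and Il10rb (-0.22), which fell, and Ifngr1 (0.66) and Irf3 (0.35), which rose. All of them were also called in these directions with the offset.

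Of the ISGF3 genes described here, Stat2 rose from 209, 213 and 209 CPM in WT to 265, 256 and 249 CPM in KO (log2 change 0.29 ± 0.0336 SE with adjusted p = 1.21e-06 in edgeR), but was at 0.0079 with the GC and length offset (edgeR adjusted p = 0.834). Irf9 was at 0.024 (edgeR adjusted p = 0.551), and at -0.18 with the offset (edgeR adjusted p = 7.73e-05). Irf7, the interferon-induced factor that drives interferon genes, rose by 0.13 (edgeR adjusted p = 3.78e-05) and was at -0.13 with the offset (edgeR adjusted p = 5.13e-06). The feedback inhibitor genes Socs1 and Socs3 were at 0.039 (edgeR adjusted p = 0.456) and 0.080 (edgeR adjusted p = 0.0271). With the offset they were at -0.17 (edgeR adjusted p = 0.00485) and -0.13 (edgeR adjusted p = 2.87e-04). The call of Socs3 was also lost when any of WT replicate 2, WT replicate 3, KO replicate 1 or KO replicate 2 was left out (edgeR adjusted p = 0.062, 0.0736, 0.0503 and 0.0792). The other feedback genes of the list were also chosen for mention after their values were seen. Ptpn1, a phosphatase gene, was at 0.83 (edgeR adjusted p = 4.13e-11) and 0.48 with the offset (edgeR adjusted p = 1.12e-09). Ptpn6, another phosphatase gene, was at 0.38 (edgeR adjusted p = 4.60e-09) and 0.22 with the offset (edgeR adjusted p = 2.43e-07). Ptpn2, a phosphatase gene that fell, was at -0.63 (edgeR adjusted p = 8.85e-08) and -0.25 with the offset (edgeR adjusted p = 8.41e-04). Pias1 was at 0.13 (edgeR adjusted p = 0.126) and 0.23 with the offset (edgeR adjusted p = 0.00715). Under the offset 11 pathway genes fell and 6 rose, and with library totals as the scaling 14 rose and 6 fell.

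Other interferon-stimulated families were counted in the same fit, in which 29.8% of all genes tested fell and 31.5% rose. All 6 IFIT genes fell, with a median log2 fold change of -1.003. Of 8 OAS genes 7 fell and 1 rose, with a median of -0.20, and of 9 GBP genes that passed the filter 7 fell and none rose, with a median of -0.29. With the GC and length offset 5 IFIT genes fell and Ifit1bl1 rose (0.16, edgeR adjusted p = 7.10e-05), with a median of -0.72. Under the same offset 7 OAS genes fell and 1 rose (median -0.29), and 4 GBP genes fell (median -0.34). Of all genes 28.3% fell and 27.2% rose under it. With library totals the falls of the IFIT genes were still called. The calls of Oas1g, Oas2 and Oasl1 were lost (edgeR adjusted p = 0.189, 0.789 and 0.203), and Oas2 turned to 0.014. Those of Gbp2, Gbp6 and Gbp11 were lost as well (edgeR adjusted p = 0.0995, 0.511 and 0.0742). The medians of the members and of these families were not tested against each other.

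Markers of other cell types moved between the genotypes beside the members. All 7 of the 11 listed neutrophil markers that passed the filter rose, against 31.5% of all genes tested. Elane and Prtn3, with at most 8 counts in a WT library, passed only through the KO libraries. The direction of these genes therefore followed from the filter. The summed level over the neutrophil list was between 206 and 224 CPM in WT and between 294 and 309 CPM in KO. Ly6g and Mpo had at most 6 counts in any library. Of 8 stromal cell markers tested 5 fell and 1 rose, against 29.8% and 31.5% of all genes tested. The 9 listed stromal markers summed to between 467 and 481 CPM in WT and between 241 and 249 CPM in KO. Most of this difference came from Acta2, with a mean of 347 CPM in WT against 151 CPM in KO. Of the 10 macrophage markers 4 rose, Adgre1, Csf1r, Itgam and Cd14, and 5 fell. Their sum was between 40385 and 41810.5 CPM in WT and between 23016 and 23546 CPM in KO. The difference in this sum came from Lyz2, the lysozyme gene, with a mean of 29831 CPM in WT against 11515 CPM in KO. The 7 markers of conventional dendritic cells summed to between 9.47 and 10.7 CPM in WT and between 10.1 and 10.6 CPM in KO. Of the 3 that passed the filter Xcr1 fell (-0.96), while Itgax (0.55) and Ccr7 (0.38) rose. Of 7 listed markers of plasmacytoid dendritic cells, Siglech and Klk1 had at most 3 counts in any library. Of the 5 that passed the filter Irf8 (-0.37) and Tcf4 (-0.62) fell, while Bst2, itself one of the 40 genes, Ccr9 and Cox6a2 were not called. The list summed to between 3290.3 and 3432 CPM in WT and between 3258 and 3369.8 CPM in KO, most of it from Bst2. The summed level of the 40 members was between 26218 and 27180.5 CPM in WT and between 21289 and 21738 CPM in KO. The part of these markers in the results was not tested.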

How the data were processed

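RNA of 6 macrophage cultures was sequenced from NEBNext Ultra libraries (per the labels' protocols). One table holds whole-number counts per gene, deposited by the authors without normalization. Its deposited FPKM were scaled by gene length and library by the authors, per the file headers, and serve here only for levels per length. The authors' mean normalized counts (deposited signal columns), log2 fold changes and p-values, per the file headers, support no result, and the authors' deposited table gives all 40 members the same sign as here. Bowtie 0.12.2, mm8 and mm10 are named, without their roles, per the submitters' processing notes, and no source used here names the counting method. Of 54409 identifiers found in GENCODE vM21 (mm10), 98.3% had identical coordinates, and positions are on that build. Rows without an Ensembl identifier, 128 in number, held up to 0.0502% of the counts and stayed in the tests.

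Genes were tested with edgeR 4.0.16 in R 4.3.3 by the quasi-likelihood test, with genotype as the term. TMM scaling, the default filter and Benjamini-Hochberg adjustment were used. In simulated counts 50 of 13080 genes were changed at each fold size. The test recovered 58% of them at 1.25-fold, 68% at 1.5-fold and 96% at 2-fold. The simulation held neither the GC trend nor the 61.3% of genes called here, so it cannot check the test under these conditions. The SE is the absolute log2 fold change over the square root of F. Alternatives were DESeq2 1.42.0, its size factors, library totals, no filter, each library left out, the replicate number as a block, and an offset per library from natural splines (5 degrees of freedom) on GC content and log length. Near-identical copies were transcripts of other genes at least 95% identical over 200 bases (BLAST 2.17.0), and 18 members had one. They include genes that overlap the member at the same place, as for Herc6. They also include copies with few counts, as for Isg15, whose copy had a mean of 2.67 counts against 149347. Libraries of 1 genotype differed by more than sampling noise (chi-square per degree of freedom 2.77 to 6.32) and none was taken for a duplicate. At this depth 3 counts are 0.0707 to 0.0938 CPM. Members, lists and the rule for named genes (every member, with values per library for those that rose, were not called or changed most within a role group) were chosen with earlier results of these data known. One gene of the pathway list is not reported here.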

Additional observations from a re-analysis of the deposited data

How the results depend on the processing

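With each of the 6 libraries left out in turn, 30 to 31 members fell, 6 to 7 rose, their median was -0.38 to -0.35, and 7387 to 7671 genes were called in all. Scaling by library totals moved the median log2 fold change over all genes to 0.11, and 26 members then fell and 9 rose, with a median of -0.26, while 14 pathway genes rose and Dtx3l reversed to 0.097. The GC and length offset gave 3 members that rose, a median of -0.34 and 11 pathway genes that fell. Signs turned under it, among the 40 members and the reported pathway genes that the rule names, for Uba7 (-0.13), Trim25 (-0.089), Ifitm3 (0.14), Helz2 (-0.15), Znfx1 (-0.035), Mov10 (-0.25), Irf9 (-0.18), Irf7 (-0.13), Socs1 (-0.17) and Socs3 (-0.13), and for Parp14 (-0.047) and Ifnar2 (-0.035), which were called in neither fit. Of these, Znfx1 was also not called under the offset. The offset removes any genotype difference that follows GC content or length, and the cause of the turned signs was not tested. The 22 members without near-identical copies comprised 15 that fell and 5 that rose, with a median of -0.23. Several of the 18 left out have only overlapping genes or copies with few counts. This subset therefore does not isolate the sharing of reads between copies, and its part in the lower median was not tested. DESeq2, its size factors and the absence of a filter left 30 or 31 members lower and 6 or 7 higher. Of the 18 members with a near-identical copy, Mx1, Phf11b, Samd9l, Slfn8 and Trim30a were summed with their copies, an alternative chosen after seeing the data, and these 5 sums fell as the members did.

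No pairing of the libraries by replicate number was seen. Same-numbered libraries deviated from their group means with correlations of -0.037, 0.036 and 0.036, and differently numbered ones with -0.067 to 0.039. These correlations over all genes cannot exclude a pairing with small effects. With the replicate block 8013 genes were called, against 8019 without it, and the counts of members did not change. The offset together with the replicate block gave 3 members that rose, a median of -0.34 and 11 pathway genes that fell, with Uba7 at -0.13, Trim25 at -0.089, Ifitm3 at 0.14, Helz2 at -0.15, Znfx1 at -0.034, Mov10 at -0.25, Irf9 at -0.18, Irf7 at -0.13, Socs1 at -0.17 and Socs3 at -0.13. All members passed the filter on low counts, but depth and 3 libraries a group limit which small changes can be called.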
